A study of Mus musculus and Rattus norvegicus with 33 samples.

Results

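The genes described here encode subunits of the mitochondrial respiratory chain and ATP synthase that are carried in the nucleus, measured by RNA sequencing in the tibialis anterior, a mostly fast muscle at the front of the shin, of wild-type (WT) mice and rats. They were chosen by symbol: 64 symbols of complex I to V subunits stood in both the mouse and the rat table, and the 63 with a level of at least 1 CPM (counts scaled to a common library total) in at least 2 libraries of each species were kept, of 13647 mouse and 10356 rat genes tested. Of these, 33 belong to complex I, 4 to complex II, 8 to complex III, 16 to complex IV and 2 to complex V. Cox6b2, an isoform gene expressed mainly in testis, was the symbol that did not pass. Another 15 ATP synthase genes had different symbols in the 2 tables (mouse Atp5a1 is rat Atp5f1a, for example) and are given separately as the renamed ATP synthase genes.

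Implanted stimulators, set over Bluetooth, drove the left leg, and the right leg of the same animal was the contralateral control. In WT mice there were 2 legs with 2 days of training, 3 with 10 days and 3 with over 17 days, and 9 contralateral legs, 1 of them (TAR348) from an animal whose left leg is not analysed here. In WT rats there were 2 legs with 30 days of daily training, 3 with 30 days of training once every 3 days, 3 with sham surgery and 8 contralateral legs. The labels place the sampling of trained legs 1 hour after exercise and give no strain, sex or age. No mouse leg was labelled as sham, so in mice surgery and training cannot be told apart. Legs are named by their label codes, TAL for left and TAR for right with the animal number.

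Complex I takes electrons from NADH and complex II from succinate, complex III passes them from coenzyme Q to cytochrome c, and complex IV hands them to oxygen. The proton gradient this builds drives ATP synthase, complex V. Oxidative muscle fibres hold more of these complexes than fast glycolytic fibres, and some complex IV subunits come as pairs of genes, 1 widely expressed and 1 mainly in heart and skeletal muscle.

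Estimated depth was 26.5 to 43.1 M reads per mouse library and 4.87 to 28.0 M per rat library. The shallowest rat library, contralateral leg TAR299, stood apart: it was the lowest of the 8 contralateral legs for 29 of the 63 genes and the highest for 22, together 81.0% of them, against 60.1% of all genes tested. Its Cox5b was 89.1 CPM, where the contralateral median was 302.6 CPM. Counts of calls among the 63 genes and the rat ratios of Cox6a1 to Cox6a2 and of Cox8a to Cox8b are therefore also given without it. Most other rat results include it, such as summed levels, medians by complex, counts of genes without overlap and levels per kilobase. The 7 markers of skeletal muscle fibres were detected in every leg, with summed levels of 88320 to 232331 CPM over both species. They differed between the rat groups, and their levels by group are given for both species with the other markers. The levels are of whole muscle, in which fewer cells of a type and less RNA per cell cannot be told apart.

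Promoter windows, the 250 bases before the annotated start, were found for 50 of the 63 genes in a RefSeq table of the mouse build GRCm38.p6. The NRF-1 motif CGCANGCGC, searched on both strands, was in 12 of the 50 windows (24%) and in 5.402% of all 27025 windows of the same length. The ETS motif CCGGAAG was in 8 (16%, against 7.053% of all windows), the ERR motif CAAGGTCA in 1 (2%, against 1.314%), the YY1 motif AAGATGG in 0 (against 4.525%) and TATAAA in 4 (8%, against 12.97%). The E-box CAGCTG, added after the Cox8b window had been read, was in 5 (10%, against 12.77%). A match describes letters in these windows and is not shown to be a bound site. The windows of 3 complex IV isoform genes whose levels are compared below are shown 5′ to 3′ on the gene's strand, with motif matches in capitals. Cox6a1 (chr5:115348959-115349208, minus strand) and Cox8a (chr19:7217617-7217866, minus strand) are the widely expressed forms, and Cox8b (chr7:140900447-140900696, minus strand) is a muscle form.
Cox6a1: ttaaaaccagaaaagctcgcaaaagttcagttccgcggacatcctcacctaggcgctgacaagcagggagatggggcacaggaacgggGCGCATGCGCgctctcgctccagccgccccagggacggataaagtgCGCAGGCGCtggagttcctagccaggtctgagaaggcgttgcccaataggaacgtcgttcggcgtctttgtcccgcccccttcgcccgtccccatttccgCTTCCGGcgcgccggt
Cox8a: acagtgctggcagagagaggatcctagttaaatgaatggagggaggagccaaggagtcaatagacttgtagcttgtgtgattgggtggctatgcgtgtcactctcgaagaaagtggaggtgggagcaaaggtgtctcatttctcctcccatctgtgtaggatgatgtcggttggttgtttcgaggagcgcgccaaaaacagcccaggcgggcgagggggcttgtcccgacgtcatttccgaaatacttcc
Cox8b: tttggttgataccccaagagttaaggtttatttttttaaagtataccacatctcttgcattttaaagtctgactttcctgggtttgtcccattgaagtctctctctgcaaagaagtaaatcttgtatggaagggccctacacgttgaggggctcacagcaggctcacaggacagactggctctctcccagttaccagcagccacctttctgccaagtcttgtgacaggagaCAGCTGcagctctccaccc
In the Cox6a1 window the NRF-1 motif has its leftmost base at -162, -161 (the pair overlap) and -116, and the ETS motif, read on the other strand, at -16, counted back from the start of transcription. The Cox8a window holds none of the 6 motifs, and that of Cox8b holds the E-box at -19.

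The first comparison asked how the respiratory chain genes stood after 30 days of daily training in rats. All 63 were higher on average in the 2 daily-trained legs than in the 8 contralateral legs, with a median log2 change of 0.42, against 0.06 over all genes tested. Summed over the 63 genes, the level was 23885 and 25324 CPM in the daily-trained legs, against 15999 to 21266 CPM (median 18902) in the contralateral legs, without overlap. Single genes passed the test less widely: 9 of 63 rose at an adjusted p under 0.05 (limma, Benjamini-Hochberg over all genes tested) and 0 fell. Of all genes tested, 5.33% rose and 2.89% fell. An unadjusted limma p under 0.05 was found for 35 of the 63. Such counts of genes are given here and below without the share of all genes tested at that cut. They therefore do not show whether these genes differ from other genes. Values of the daily-trained legs lay above every contralateral leg for 29 of the 63 genes, against 13.3% of all genes tested.

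**Figure D1:**
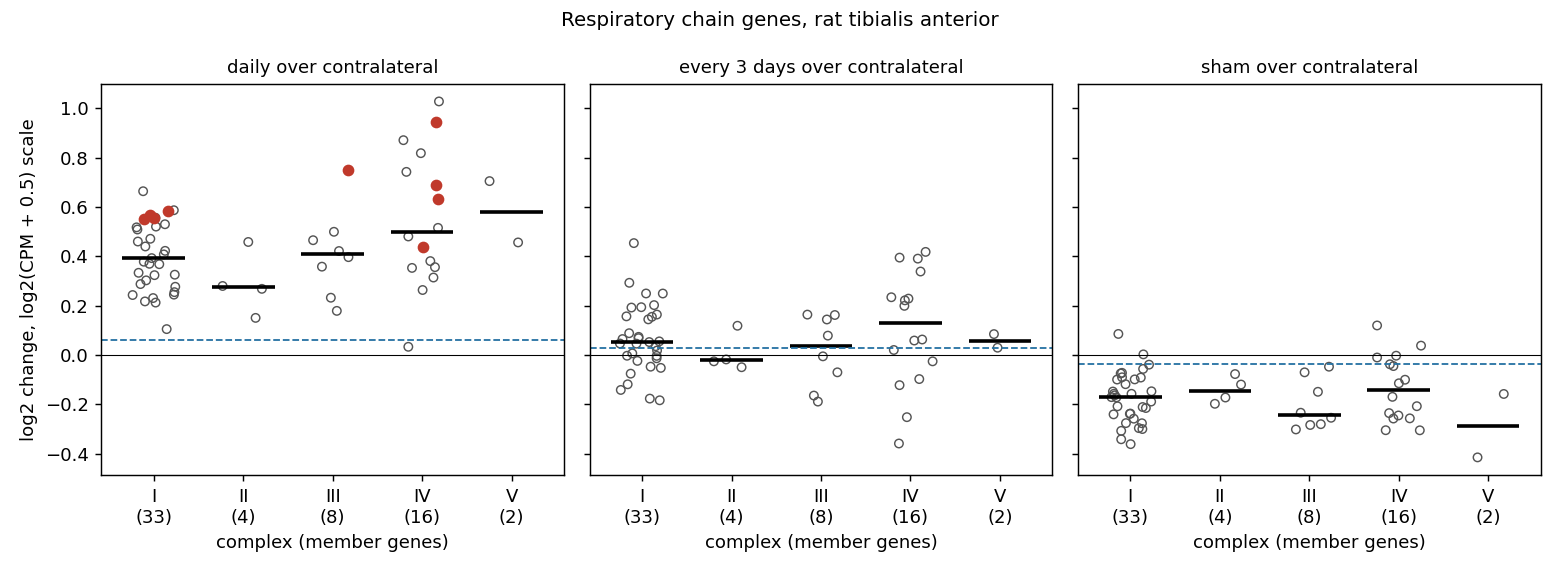
Log2 change (log2(CPM + 0.5) scale) of each of the 63 respiratory chain genes in rats, by complex, for daily training, training every 3 days and sham surgery over contralateral legs; red points passed the test, open points did not, black bars are complex medians and the dashed blue line is the median of all genes tested. All 63 points lie above 0 after daily training, 40 after training every 3 days and 4 after sham surgery.

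Complex IV, cytochrome c oxidase, held the gene with the most marked rise. Cox6a1, the widely expressed form of subunit VIa, was 54.1 and 48.2 CPM in the daily-trained legs, against a lowest value of 20.5, a median of 27.7 and a highest of 30.4 CPM in the contralateral legs. Both daily-trained legs lay above all contralateral legs, and the log2 change was 0.94 ± 0.17 (SE; limma adjusted p = 0.0018). Cox7a2, the widely expressed form of subunit VIIa, was 119 and 108 CPM in the daily-trained legs, against 60.5, 69.2 and 81.5 CPM (lowest, median, highest) in the contralateral legs. It too was separate from every contralateral leg, by 0.69 ± 0.14 (limma adjusted p = 0.0053). Cox8a, the widely expressed form of subunit VIII, was 48.5 and 36.9 CPM in the daily-trained legs and 22.6, 27.2 and 34.0 CPM in the contralateral legs, a log2 change of 0.63 ± 0.17 (limma adjusted p = 0.0315). Cox4i1, the main form of subunit IV, was 1267 and 1219 CPM in the daily-trained legs and 834, 885 and 1089 CPM in the contralateral legs, a change of 0.44 ± 0.12 (limma adjusted p = 0.0343). These 4 of the 16 complex IV genes passed, and the complex IV median was 0.50.

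The muscle form Cox8b had the largest change of all 63 but did not pass. It was 339 and 226 CPM in the daily-trained legs, against 35.3, 145 and 213 CPM in the contralateral legs, with a log2 change of 1.03 ± 0.45 (limma adjusted p = 0.172). The lowest contralateral value was that of TAR299. Without that leg the change of Cox8b was 0.75 and passed (limma adjusted p = 0.0360). The muscle form Cox6a2 was 878 and 967 CPM in the daily-trained legs and 246, 837 and 892 CPM in the contralateral legs, so those groups overlapped. Cox7a2l, a factor that joins complexes III and IV into supercomplexes, had the smallest change, 0.03, with 88.1 and 81.8 CPM in the daily-trained legs and 69.1, 79.8 and 133 CPM in the contralateral legs.

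Complex I, NADH dehydrogenase, had 4 of 33 genes called and a median of 0.39. All 4 are accessory subunits, which surround the catalytic core: Ndufa5 (0.58 ± 0.17, limma adjusted p = 0.0465), Ndufa6 (0.57 ± 0.15, limma adjusted p = 0.0220), Ndufa1 (0.56 ± 0.16, limma adjusted p = 0.0447) and Ndufc2 (0.55 ± 0.16, limma adjusted p = 0.0361). Ndufc2 was 162 and 175 CPM in the daily-trained legs, against 93.5, 117 and 135 CPM in the contralateral legs, and the groups did not overlap. Of the 7 core subunits, which include those that carry the flavin and iron-sulphur clusters, 0 passed the limma test (2 had an unadjusted p under 0.05) and the median was 0.32, against 4 of 26 accessory subunits with a median of 0.43. That difference between core and accessory subunits was not tested. Ndufs1, the largest core subunit, was 789 and 1094 CPM in the daily-trained legs and 598, 787 and 1027 CPM in the contralateral legs, which overlapped.

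In complex III, cytochrome bc1, 1 of 8 genes rose: Uqcrq, a small subunit in the membrane part, was 341.2 and 291.8 CPM in the daily-trained legs, against 146, 193 and 241 CPM in the contralateral legs. The groups did not overlap, and the change was 0.75 ± 0.19 (limma adjusted p = 0.0174). The core protein Uqcrc1 was 766 and 968 CPM in the daily-trained legs and 494, 671 and 830 CPM in the contralateral legs. Complex II, succinate dehydrogenase, had 0 of 4 genes called by limma (1 at an unadjusted p under 0.05) and a median of 0.27. Sdha, its flavoprotein, was 894 and 1098 CPM in the daily-trained legs and 630, 919 and 1127 CPM in the contralateral legs, with full overlap and a log2 change of 0.15. Neither complex V gene of the 63, Atp5md and Atp5pb, passed limma, though both had an unadjusted p under 0.05 (median 0.58). Among the 15 renamed ATP synthase genes 4 rose: Atp5mc1, a source of the c-ring, by 0.62, Atp5mf by 0.58, Atp5pd of the peripheral stalk by 0.51 and Atp5f1d by 0.45. The catalytic head subunits Atp5f1a and Atp5f1b had log2 changes of 0.13 and 0.07 and did not pass.

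**Figure D2:**
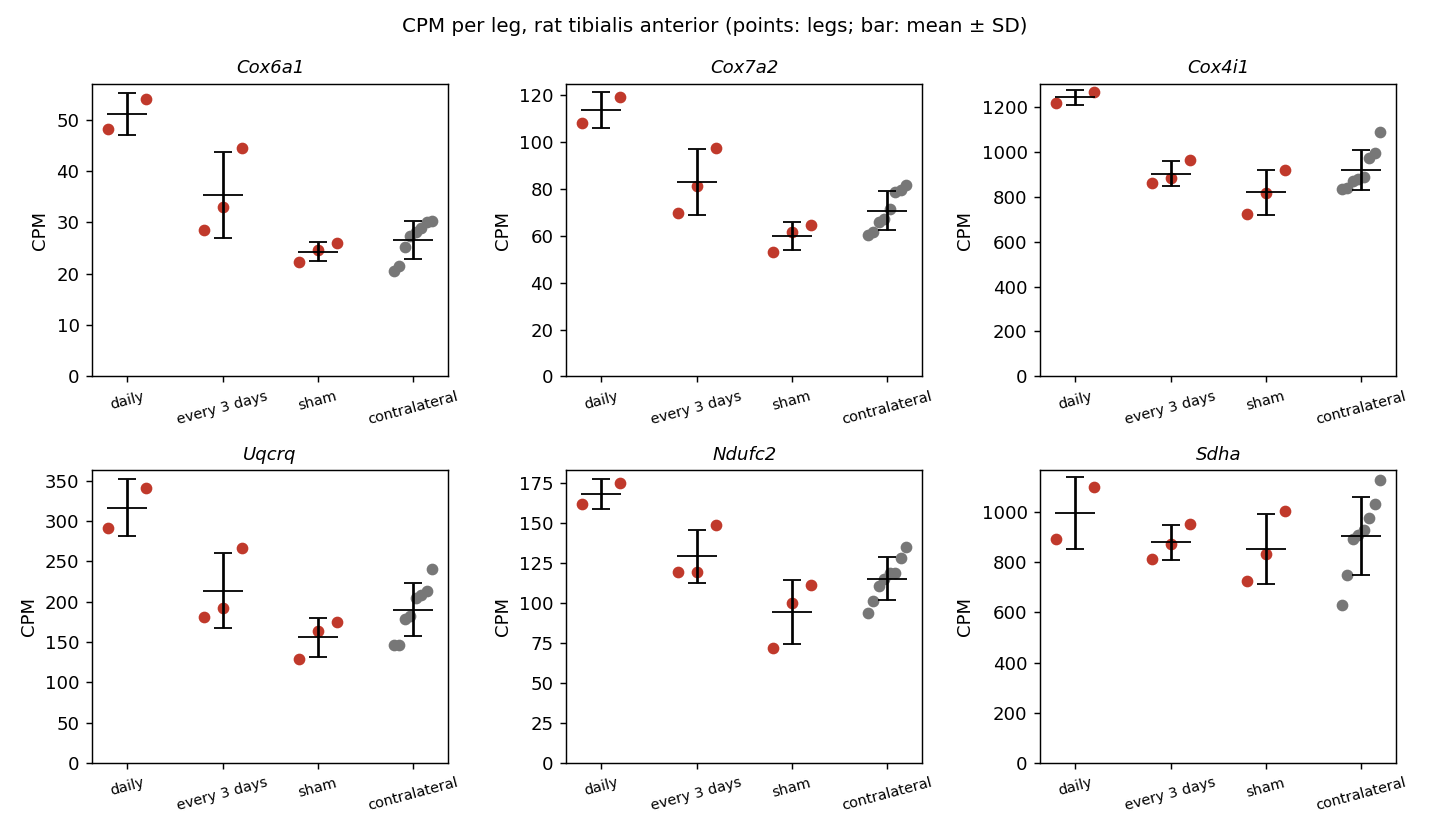
CPM of Cox6a1, Cox7a2, Cox4i1, Uqcrq, Ndufc2 and Sdha in each rat leg after daily training, training every 3 days, sham surgery and in contralateral legs, with bars for the mean ± SD. The 2 daily-trained legs lie above all contralateral legs in every panel but that of Sdha, where they fall inside the contralateral range of 630 to 1127 CPM.

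The count of calls depended on single legs while the direction of the median did not. Cox7a2l, Ndufs1 and Ndufs5 came out below 0 in at least 1 fit with a single leg left out, with lowest log2 changes of -0.02, -0.0046 and -0.39. Without TAR299 29 of the 63 genes rose and the median was 0.39, and in that fit 7.55% of all genes tested rose and 5.31% fell. Leaving out contralateral leg TAR292 or TAR295 gave 4 calls each. Leaving out TAL292 or TAL294 leaves 1 daily-trained leg, so no count is given here for those fits. The calls did not rest on these 2 legs alike, but more on TAL292. Over the own right leg the median of the 63 genes was 0.60 in TAL292 and 0.27 in TAL294. Medians were between 0.39 and 0.46 over all single legs left out. No share of all genes tested is given for the fits without TAR292 or TAR295 or for the block. With the animal as a block, 1 gene rose, Cox7a2, by 0.79 (limma adjusted p = 0.0277), and Cox6a1 had a log2 change of 0.98 (limma adjusted p = 0.0543).

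Against the 3 sham legs the daily-trained legs showed larger differences. All 63 genes were higher on average, with a median of 0.60 against 0.10 over all genes tested, 19 rose and 0 fell, where 5.53% of all genes tested rose and 2.61% fell. Over all genes tested, 573 rose and 270 fell, and 505 and 412 after median-of-ratios rescaling, under which 16 of the 63 rose. The values of 58 of the 63 genes lay above those of all 3 sham legs, against 28.2% of all genes tested. By complex, 8 of 33 genes rose in complex I (median 0.57), 0 of 4 in complex II (0.42, with 3 at an unadjusted p under 0.05), 4 of 8 in complex III (0.56), 5 of 16 in complex IV (0.79) and both in complex V (0.87), and 5 of the 15 renamed ATP synthase genes (0.65).

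Atp5md, a small subunit that stabilises ATP synthase dimers, was 61.2 and 43.6 CPM in the daily-trained legs, against 16.9, 29.5 and 26.0 CPM in the sham legs. It rose by 1.12 ± 0.32 (limma adjusted p = 0.0389), though 1 contralateral leg, TAR299, reached 53.8 CPM. Cox6a1 was 22.3, 24.6 and 25.9 CPM in the sham legs, from which the daily-trained legs differed by 1.06 ± 0.20 (limma adjusted p = 0.0024). Uqcrq rose by 1.03 ± 0.21 (limma adjusted p = 0.0059) and Cox7a2 by 0.92 ± 0.16 (limma adjusted p = 0.0017), with 129 to 175 CPM and 53.2 to 64.7 CPM in the sham legs. Ndufc2 rose by 0.85 ± 0.18 (limma adjusted p = 0.0070), with 72.0, 100.2 and 111 CPM in the sham legs. The other genes that rose were Cox8a and Cox7c (0.84 and 0.82), Ndufa6, Ndufa5, Ndufa2, Ndufb5 and Ndufa1 (0.70 to 0.78), Uqcrb and Uqcr10 (0.70 and 0.65), Ndufb4, Atp5pb, Uqcrh, Cox4i1 and Ndufb6 (0.53 to 0.63). Both comparisons share the daily-trained legs. Without TAR299, which enters this fit through the shared estimate of the spread, 42 rose, where 9.89% of all genes tested rose and 4.76% fell. Without sham leg TAL296 5 rose and without sham leg TAL297 10, with no share of all genes tested given for those fits. Leaving out TAL292 or TAL294 leaves 1 daily-trained leg, so no count is given here for those fits. Here too the calls rested more on TAL292 than on TAL294. As a difference of own-leg changes, with the animal as a block, 2 passed: Cox7a2 at 1.13 (limma adjusted p = 0.0278) and Ndufc2 at 1.00 (limma adjusted p = 0.0476). No share of all genes tested is given for the block.

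Sham legs had no gene called against contralateral legs. Their summed level was 13787 to 19290 CPM, and 59 of the 63 genes were lower on average, with a median of -0.17 against -0.04 over all genes tested. None passed limma (0% of all genes tested did), and 3 had an unadjusted p under 0.05. The ranges of sham and contralateral legs overlapped for all 63 genes, where 0.222% of all genes tested were apart with sham legs higher and 0.377% with sham legs lower.

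Training every 3 days gave no call in either comparison. Against contralateral legs the median was 0.06, 40 of 63 genes were higher on average, limma called 0 (6.66% of all genes tested were called) and 1 had an unadjusted p under 0.05. That 1 was Cox6a1, with 33.0, 28.4 and 44.5 CPM in legs TAL295, TAL298 and TAL299, a change of 0.39 ± 0.15 (limma adjusted p = 0.125). TAL299 was the highest of the 3, and the range of the group met that of the contralateral legs. Against sham legs the median was 0.22, 60 of 63 were higher on average, 0 were called by limma (4.25% of all genes tested were) and 7 had an unadjusted p under 0.05, Cox7a2 having the lowest (0.46 ± 0.15, limma adjusted p = 0.09997). For 10 genes every leg trained every 3 days lay above every sham leg, against 15.6% of all genes tested. Without TAR299, Ndufa12 passed against sham legs (0.38, limma adjusted p = 0.0397).

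Between the training schedules, 62 of 63 genes were higher on average after daily training than after training every 3 days, by a median of 0.36, where all genes tested had a median of 0.03. Limma called 0 of them (0.0869% of all genes tested were called), and 22 had an unadjusted p under 0.05. The daily-trained legs lay above all 3 legs trained every 3 days for 49 of the 63 genes, against 13.1% of all genes tested. Cox7a2 was 119 and 108 CPM after daily training, against 69.7, 81.5 and 97.6 CPM after training every 3 days, a difference of 0.47 ± 0.16 (limma adjusted p = 0.623). Without TAR299 limma also called 0 of the 63 in this comparison, in that of training every 3 days with contralateral legs and in that of sham with contralateral legs.

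**Figure D3:**
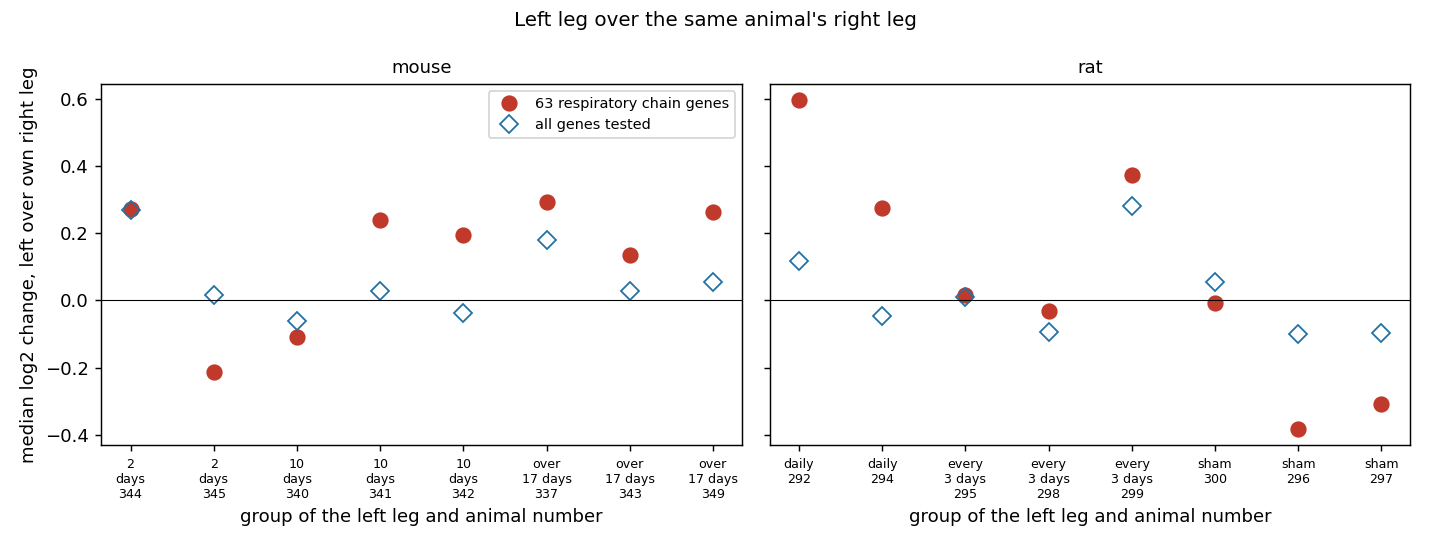
Median log2 change of the 63 respiratory chain genes (red circles) and of all genes tested (blue diamonds) in each left leg over the same animal's right leg. In rats, TAL292 and TAL294 after daily training are at 0.60 and 0.27, and sham legs TAL296 and TAL297 at -0.38 and -0.31. In mice, the 2-day legs TAL344 and TAL345 are on opposite sides of 0.

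Each left leg could also be set against the right leg of its own animal, as plotted by animal. In the daily-trained rats the median of the 63 genes was 0.60 in TAL292, with all 63 above 0, and 0.27 in TAL294, with 61 above 0, where all genes tested had medians of 0.12 and -0.05. Legs trained every 3 days gave 0.02 (TAL295), -0.03 (TAL298) and 0.37 (TAL299). The own right leg of TAL299 is TAR299, and the median of all genes tested for that pair was 0.28. In the sham rats the medians were -0.01 (TAL300), -0.38 (TAL296) and -0.31 (TAL297), with 1 of 63 genes above 0 in each of the last pair.

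Levels between the respiratory chain genes, without the renamed ATP synthase genes, were compared per kilobase of the rat transcript models. In contralateral legs the highest mean was Cox6a2 at 1586 CPM per kb, then Cox4i1 at 1324 CPM per kb and Cox6c at 1232 CPM per kb. The lowest were Cox4i2, a subunit IV form known from lung, at 2.21 CPM per kb, and Ndufa4l2, a hypoxia-induced relative of the complex IV subunit Ndufa4, at 3.81 CPM per kb. By complex the median level was 236 CPM per kb for complex I, 399 for complex II, 414 for complex III, 494 for complex IV and 450 for complex V. The complex V value is the midpoint of 2 genes, Atp5md at 106 CPM per kb and Atp5pb at 793 CPM per kb. As the renamed ATP synthase genes are left out, it does not rank ATP synthase as a whole against the other complexes. The 4 complex II genes lay within 383 to 403 CPM per kb, the narrowest range of the complexes.

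In mice the same genes had smaller median changes against contralateral legs than in daily-trained rats. These changes were larger than in rats trained every 3 days. Lengths and schedules of training differed between the species. At 2 days the median log2 change was 0.17, against 0.11 over all genes tested, 52 of 63 genes were higher on average, and limma called 0 of them, where 9.72% of all genes tested were called, and 8 had an unadjusted p under 0.05. Over all genes tested 999 rose and 327 fell, and 790 and 702 after median-of-ratios rescaling, which put the median of the 63 at 0.04. At 10 days the median was 0.12 against 0.03 over all genes tested, and 1 gene rose and 0 fell, where 3.61% of all genes tested rose and 1.92% fell. At over 17 days it was 0.12 against 0.05, and 2 genes rose and 0 fell, where 6.3% of all genes tested rose and 2.48% fell. The 860 higher and 338 lower calls over all genes tested became 918 and 649 after median-of-ratios rescaling. The summed level was 11023 and 14050 CPM at 2 days, 10714 to 13860 CPM at 10 days and 11786 to 13175 CPM at over 17 days, against 9889 to 12861 CPM in contralateral legs, with overlap in each case.

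**Figure D4:**
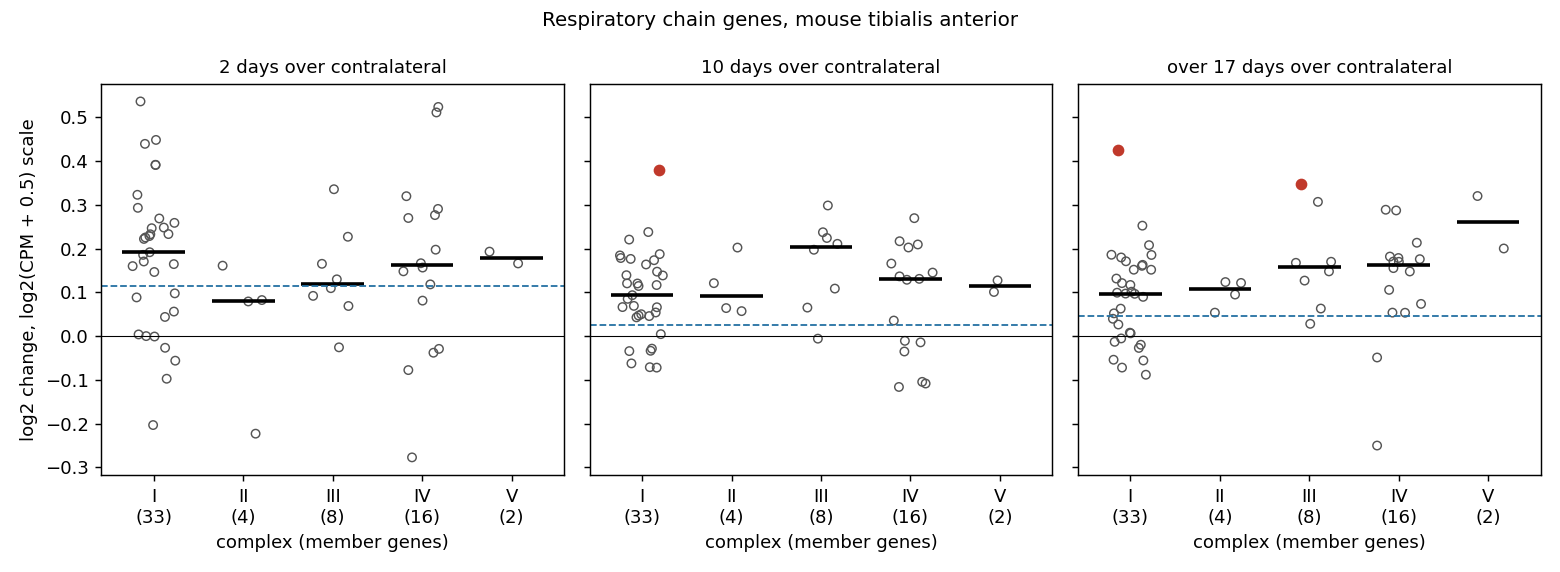
Log2 change (log2(CPM + 0.5) scale) of each of the 63 respiratory chain genes in mice, by complex, after 2, 10 and over 17 days of training over contralateral legs; red points passed the test, open points did not, black bars are complex medians and the dashed blue line is the median of all genes tested. The red points are Ndufb5 (complex I) at 10 and over 17 days and Uqcrb (complex III) at over 17 days.

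Ndufb5, an accessory subunit of the membrane arm of complex I, was the gene called at more than 1 length of training. Its level was 199 and 188 CPM at 2 days, 185, 211 and 209 CPM at 10 days and 211, 222 and 191 CPM at over 17 days, against 134, 158 and 175 CPM (lowest, median, highest) in contralateral legs. Every trained leg lay above every contralateral leg. The change was 0.32 ± 0.11 at 2 days (limma adjusted p = 0.0595), 0.38 ± 0.09 at 10 days (limma adjusted p = 0.0165) and 0.42 ± 0.09 at over 17 days (limma adjusted p = 0.0058). With the animal as a block it was 0.39 at 10 days (limma adjusted p = 0.101) and 0.45 at over 17 days (limma adjusted p = 0.0314). Without TAL341 or without TAL342 it did not pass at 10 days. The gene lies at 32791139 to 32805716 on the plus strand of mouse chromosome 3 (GRCm39). In rats Ndufb5 was 321 and 322 CPM after daily training, against 181, 229 and 275 CPM in contralateral legs.

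Uqcrb, the ubiquinone-binding subunit of complex III, was 67.3 and 64.4 CPM at 2 days, 61.1, 70.8 and 84.6 CPM at 10 days and 72.8, 72.5 and 92.3 CPM at over 17 days, against 57.1, 60.6 and 71.3 CPM in contralateral legs. The longest-trained legs lay above all contralateral legs, and the change at over 17 days was 0.35 ± 0.10 (limma adjusted p = 0.0390). It did not pass with the animal as a block (0.28, limma adjusted p = 0.190) or in 9 of the fits that left out a single leg, among them that without TAL349. Legs and contralateral legs did not overlap for 3 genes at over 17 days (Atp5pb, Ndufb5 and Uqcrb), against 5.44% of all genes tested. At 10 days that held for Ndufb5 alone of the 63, against 4.71% of all genes tested. At 2 days it held for Ndufb5, higher, against 10.1% of all genes tested, and for the complex I core gene Ndufs1, lower, against 4.37%.

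The 2 mice trained for 2 days differed. Ndufb7, a complex I accessory subunit with the largest change at 2 days (0.54), was 166 CPM in TAL344 and 78.4 CPM in TAL345, against 63.9, 79.2 and 102 CPM in contralateral legs. Cox8a was 27.6 CPM in TAL344 and 14.0 CPM in TAL345, against 11.1, 14.0 and 16.4 CPM in contralateral legs. Only TAL344 was above the contralateral range for both genes. Against its own right leg TAL344 had a median of 0.27 over the 63 genes, equal to the 0.27 of all genes tested, and TAL345 a median of -0.21, with 3 of 63 above 0. Without TAL345 21 genes rose at 2 days (median 0.39), where 19.9% of all genes tested rose, and without TAL344 the median was -0.04.

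By complex, the medians at 2, 10 and over 17 days were 0.19, 0.09 and 0.10 for complex I, 0.08, 0.09 and 0.11 for complex II, 0.12, 0.20 and 0.16 for complex III, 0.16, 0.13 and 0.16 for complex IV, and 0.18, 0.11 and 0.26 for complex V. The renamed ATP synthase genes had medians of 0.18, 0.14 and 0.15, and limma called 0 of 15 at each length, with 1, 2 and 2 at an unadjusted p under 0.05. The complex II median was the smallest of the 5 at 2 and 10 days. Its flavoprotein Sdha was 793 and 840 CPM at 2 days, 903 to 1123 CPM at 10 days and 920 to 1210 CPM at over 17 days, against 824, 949 and 1038 CPM in contralateral legs, with overlap at each length. Between the trained groups limma called 0 of the 63 (0.022%, 0.586% and 0% of all genes tested were called in either direction for 10 against 2 days, over 17 against 2 days and over 17 against 10 days), and 3, 4 and 0 had an unadjusted p under 0.05.

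Within complex IV, the ratio of 2 forms of a subunit was computed per leg as a difference of log2(CPM + 0.5). It was the widely expressed over the muscle form, except for subunit IV. There it was Cox4i2, the form known from lung, over the main form Cox4i1. Over both species 21 such ratios were tested. In mice the mean log2 ratio of Cox6a1 to Cox6a2 was -4.94 ± 0.15 at 2 days, -5.01 ± 0.13 at 10 days and -4.92 ± 0.20 at over 17 days (SD, n = 2, 3 and 3), against -5.34 ± 0.16 in contralateral legs (SD, n = 9). Trained legs were higher by 0.39, 0.32 and 0.42 (exact permutation p = 0.0182, 0.0136 and 0.0136, adjusted p = 0.0545 each, 2-sided). For Cox8a over Cox8b the differences were 0.55, 0.38 and 0.26 (exact permutation p = 0.0182, 0.0182 and 0.0409, adjusted p = 0.0545, 0.0545 and 0.107). For Cox7a2 over Cox7a1 the difference was 0.20 at 2 days, and -0.39 and -0.34 at 10 and over 17 days (exact permutation p = 0.182, 0.0091 and 0.0045, adjusted p = 0.347, 0.0545 and 0.0545). Cox4i2 over Cox4i1 differed by 0.08, -0.26 and -0.00 (exact permutation p = 0.691, 0.0682 and 1.00). After adjustment over the 21 ratios 0 passed and 8 had an unadjusted p under 0.05 by the exact permutation test, all 8 in mice. The smallest p this test can give for 2 against 9 legs is 0.0182. Without TAL349 those 8 mouse ratios all passed (adjusted p = 0.0477 each). Without TAR299 8 of the 21 also passed, but they were 7 of the mouse ratios, without Cox8a over Cox8b at over 17 days, and 1 rat ratio given below. This test treats the legs as unpaired. Set against the own right leg, the ratio of Cox6a1 to Cox6a2 was higher in the trained leg of 2 of 2 mice at 2 days, 3 of 3 at 10 days and 2 of 3 at over 17 days, with differences of -0.06 to 0.78. That of Cox7a2 to Cox7a1 was lower in 3 of 3 mice at 10 days and 3 of 3 at over 17 days, and that of Cox8a to Cox8b was higher in 2 of 2, 3 of 3 and 2 of 3. An exact sign-flip test over 3 animals cannot give a p below 0.25.

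**Figure D5:**
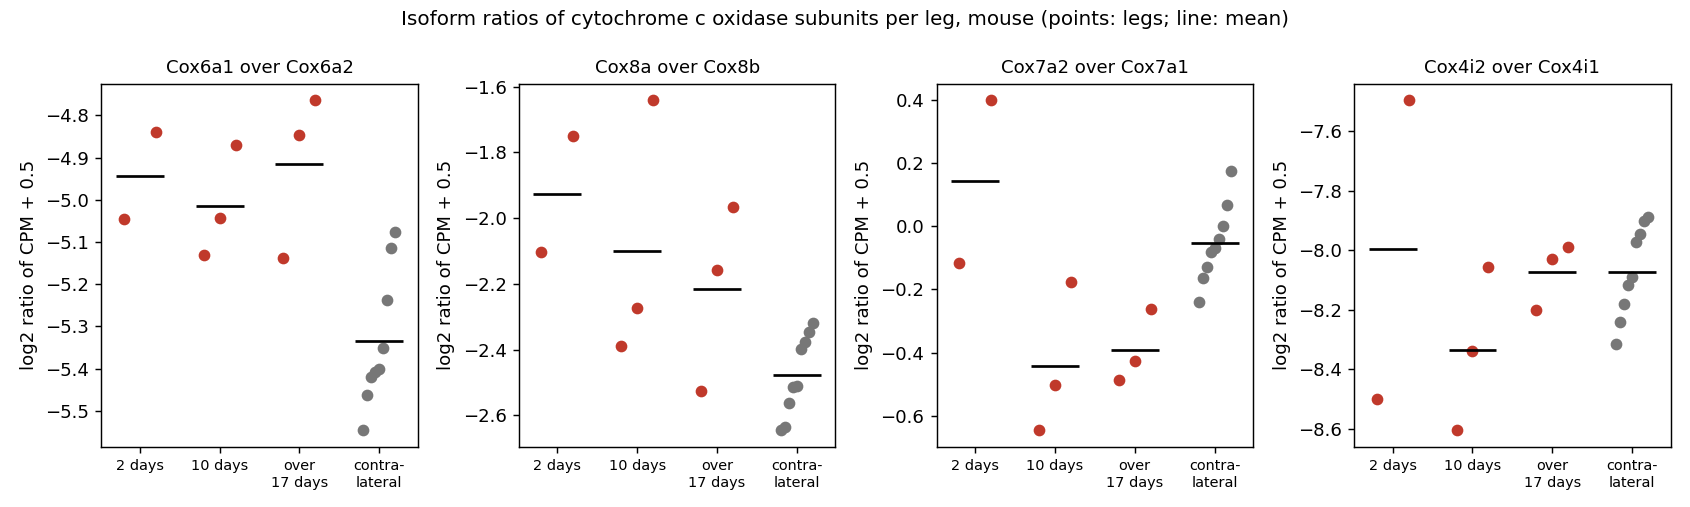
Log2 ratio of the CPM + 0.5 of 4 pairs of complex IV isoform genes in each mouse leg after 2, 10 and over 17 days of training and in contralateral legs; lines are means. For Cox6a1 over Cox6a2 the group means of trained legs lie at -4.92 to -5.01, against -5.34 in contralateral legs, and the ranges overlap at 10 and over 17 days.

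Taken singly, Cox6a1 was 17.2 and 9.52 CPM at 2 days, 8.95 to 11.6 CPM at 10 days and 8.21 to 11.8 CPM at over 17 days, against 7.37, 8.04 and 11.4 CPM in contralateral legs, and did not pass by itself. Cox7a1, the muscle form, which is not among the 63, as no rat value was analysed here, was 80.9 and 77.4 CPM at 2 days, 80.9, 114 and 118 CPM at 10 days and 98.3, 113 and 112 CPM at over 17 days, against 65.1 to 95.7 CPM in contralateral legs. It rose at over 17 days by 0.44 ± 0.12 (limma adjusted p = 0.0253). In rats the log2 ratio of Cox6a1 to Cox6a2 was -4.16 ± 0.02 after daily training (SD, n = 2), against -4.73 ± 0.50 in contralateral legs (SD, n = 8), a difference of 0.56 (exact permutation p = 0.133, adjusted p = 0.280). After training every 3 days it was -4.39 ± 0.22 (SD, n = 3), a difference of 0.33 (exact permutation p = 0.327, adjusted p = 0.529). Contralateral leg TAR299, at -3.55, was above every trained leg, and the other 7 contralateral legs, at -5.11 to -4.69, were below them all. Without TAR299 the difference was 0.73 after daily training (exact permutation p = 0.0278, the smallest it can give, adjusted p = 0.0648). It was 0.50 after training every 3 days (exact permutation p = 0.0083, adjusted p = 0.0477), and -0.07 after sham surgery (exact permutation p = 0.533). For Cox8a over Cox8b the differences in trained rats were negative, unlike those in mice. They were -0.40 after daily training and -0.36 after training every 3 days (exact permutation p = 0.356 and 0.455). Without TAR299 they were -0.16 and -0.12 (exact permutation p = 0.389 and 0.517). Against the own right leg the ratio was lower in 2 of 2 daily-trained rats and 2 of 3 trained every 3 days. Cox4i2 over Cox4i1 differed by -0.17 and -0.33 (exact permutation p = 0.622 and 0.327).

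Other genes of the pathway, from lists chosen with earlier results known, stood as follows. The 13 subunits encoded on mitochondrial DNA had mouse medians of -0.34 at 2 days, -0.29 at 10 days and 0.23 at over 17 days. Limma called 0, 0 and 1 of them (mt-Atp8, 0.57, limma adjusted p = 0.0179), where 6.3% of all genes tested rose at over 17 days. At 2 and 10 days 1 and 2 had an unadjusted limma p under 0.05. At 2 and 10 days 12 of the 13 were below 0 while most of the 63 nuclear genes were above it. CPM are shares of a total that holds the mitochondrial genes, and with these left out of it the nuclear median at 2 days was 0.09. That median is not given here for 10 or over 17 days. The mitochondrial genes held 11.4 and 19.0% of CPM at 2 days and 17.6, 23.4 and 25.4% at over 17 days, against 13.4 to 23.6% in contralateral legs. Of the mobile carriers and coenzyme Q enzymes, 1 of 15 rose in rats after daily training, where 5.33% of all genes tested rose: Cycs, cytochrome c, was 1920 and 2190 CPM in the daily-trained legs, against 891 to 1512 CPM in contralateral legs (0.80 ± 0.22, limma adjusted p = 0.0355). Assembly factors of complexes I, III, IV and V, which build the complexes without remaining in them, had 0 of 14, 6, 19 and 4 called by limma after daily training against contralateral legs, with 1, 0, 3 and 0 at an unadjusted p under 0.05. In mice at 2 days 3 of 23 assembly factors of complex IV and 1 of 4 of complex II rose, where 7.32% of all genes tested rose.

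Of 15 regulators of mitochondrial genes 1 rose after daily training, where 5.33% of all genes tested rose. The same gene rose after training every 3 days, where 6.66% of all genes tested were called in either direction. Ppargc1a, which encodes the coactivator PGC-1α, was 74.2 and 72.7 CPM in the daily-trained legs, against 6.80 to 14.7 CPM in contralateral legs, and 46.4, 44.0 and 46.5 CPM after training every 3 days. These changes were 2.64 ± 0.22 and 1.96 ± 0.18 (limma adjusted p = 6.1e-07 and 1.6e-06). In mice it was 49.5 and 47.3 CPM at 2 days, 54.5, 43.5 and 242 CPM at 10 days and 79.2, 46.2 and 258 CPM at over 17 days, against 32.7 to 49.6 CPM in contralateral legs, and 0 of 16 regulators passed limma at any length of training, with 1, 3 and 3 at an unadjusted p under 0.05.

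Markers of fibre type and of other cells moved in the same legs, and their part in the results was not tested. Myh4, the fastest myosin heavy chain, was 71.4 and 589 CPM in the daily-trained rat legs, against 42635 to 73668 CPM in contralateral legs, and 2273, 5163 and 15060 CPM after training every 3 days. The 7 skeletal muscle fibre markers, Myh4 among them, summed to 136421 and 141732 CPM after daily training, 155273 to 185430 CPM after training every 3 days and 188980 to 232331 CPM after sham surgery, against 161137 to 203777 CPM in contralateral legs. The daily-trained legs lay below all contralateral legs, with 2 of the 7 called higher and 3 lower, where 5.33% of all genes tested rose and 2.89% fell. The 7 slow fibre markers summed to 2641 and 2679 CPM after daily training and 228 to 3382 CPM after sham surgery, against 1723 to 5067 CPM in contralateral legs, and limma called 0 of 7 after daily training, with 0 at an unadjusted p under 0.05. The 5 fibroblast markers summed to 1260 and 1440 CPM after daily training and 272 to 618 CPM after sham surgery, against 309 to 772 CPM in contralateral legs. After daily training 1 of the 5 was called higher, where 5.33% of all genes tested rose. The 10 macrophage markers summed to 63.5 and 72.5 CPM after daily training, against 21.7 to 63.8 CPM in contralateral legs, with 0 called by limma and 4 at an unadjusted p under 0.05. In mice 1, 2 and 3 of the 5 fibroblast markers and 2, 1 and 1 of the 10 macrophage markers rose at 2, 10 and over 17 days, where 7.32%, 3.61% and 6.3% of all genes tested rose. The 7 fibre markers summed to 120262 and 121713 CPM at 2 days and 115874 to 128540 CPM at 10 days. At over 17 days they summed to 88320 to 99886 CPM, against 95020 to 147793 CPM in contralateral mouse legs, with overlap.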

How the data were processed

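The authors deposited CPM, counts scaled to a common total, in 1 table per species, with an offset of 0.0001 that was subtracted here. Per the submitters' processing notes, the builds rn7, GRCm39 and mm10 and the tools DESeq2, Partek and STAR (2.7.8a) were used, with no role stated for any of them. Mouse coordinates are GRCm39 as deposited. Rat rows were summed per symbol (13166 rows, 12411 symbols), and of mouse entries with the same symbol the less abundant (23) were dropped. Low values were whole multiples of 1 read in 85.2 to 89.5% of cases, too few to recover counts, so no count test was run.

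Genes with at least 1 CPM in at least 2 libraries were tested on log2(CPM + 0.5) with limma 3.58.1 (R 4.3.3, 2-sided, with a trend of variance on mean), each species in 1 fit, with Benjamini-Hochberg adjustment over all genes tested and calls at 0.05. Fold changes on this scale understate those of low genes. Legs were treated as separate samples, so p-values measure the spread between these legs. Left and right legs with the same number come from the same animal; their deviations from the group means correlated at -0.03 to 0.30 in mice and 0.04 to 0.26 in rats, and blocking on the animal was an alternative. The limma fit without the block was tried on simulated data in which genes and legs varied independently, unlike legs of the same animal. Isoform ratios used exact permutation tests. Tables and figures were made with scipy 1.17.1, pandas 2.3.3, numpy 2.4.6 and matplotlib 3.10.9 in python 3.11.15.

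Alternatives were other pseudocounts (0.1 and 1), no filter, median-of-ratios rescaling, mitochondrial DNA genes left out, 2 groups per fit, the highest row per symbol and single legs left out. The members and gene lists were chosen with earlier results of these data known. Genes named are those called, a set of standard subunits and isoform pairs, and the largest and smallest changes per complex. Ndufa4, Ndufa4l2 and Cox7a2l were counted with complex IV. Atp5pb, Cox5b, Cox7c, Ndufa12, Ndufs5, Uqcrh, Ndufs6 and Ndufa11 have near-identical copies, and their values are uncertain.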

Additional observations from a re-analysis of the deposited data

Results flagged for a closer look

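Of 67 sets of contralateral values examined, 14 held a leg far from the others of its group. Chance alone gives about 1 in 20, but these sets come from the same legs and are not independent. In rats 11 of the 14 were leg TAR299, the shallowest library. It was the highest leg for Uqcrfs1 (1957 CPM), Cox5a (421 CPM), Cox6b1 (233 CPM), Cox7a2l (133 CPM), Ndufa2 (129.97 CPM) and Cox4i2 (3.49 CPM). It was the lowest for Uqcrc2 (342.7 CPM), Cox6a2 (246 CPM), Ndufa4 (218 CPM), Ndufb8 (157 CPM) and Cox5b (89.1 CPM). In mice the legs were TAR349, lowest for Sdhc (232 CPM) and Cox7a2l (68.8 CPM), and TAR348, highest for Ndufs1 (456 CPM).

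For 2 genes the own-leg change of daily-trained rats differed from that of sham rats in a test of that difference (limma with the animal as a block). Cox7a2 differed by 1.13 (adjusted p = 0.0278) and Ndufc2 by 1.00 (adjusted p = 0.0476). No share of all genes tested is given for that test, so the count describes the members alone.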

How the results depend on the processing

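The numbers of members called moved in some alternatives, and 0 of the 31 calls held under every alternative. Cox7a2 lost its call in 1 of 24 alternatives in each rat comparison that called it, each time the fit without TAL292, which leaves 1 daily-trained leg. Ndufb5 lost its call in 1 of 26 at over 17 days. With the replicate block, the pairing by animal, the counts were 0 at 10 days, 1 at over 17 days, 1 for daily training against contralateral legs and 2 against sham legs, and the block changed no other count of calls by more than 1.5 times. Block and mitochondrial DNA genes left out gave 0 at 10 days and 1 at over 17 days. Median-of-ratios rescaling gave 1 at 2 days (a fall) and 1 at over 17 days; with the block as well it gave 0 at over 17 days and 9 for daily training against sham legs. The cause was not tested.

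Leaving out single legs gave 0 to 21 calls at 2 days, 0 to 2 at 10 days, 1 to 2 at over 17 days, 0 to 7 for 10 against 2 days and 0 to 7 for over 17 against 2 days. In rats it gave 0 to 29 for daily training against contralateral legs, 0 to 42 against sham legs, 0 to 1 for training every 3 days against sham legs, and 0 to 8 isoform ratios over both species. Where 1 leg was left in a group, that leg was assumed to vary like the other groups. Shares of all genes tested are given above only for the fits without TAR299 or TAL345, so the other counts describe the members alone. None of these changes reversed a called direction. At 2 days the median of the members was 0.17, and -0.12 with block and rescaling together. Precision is limited by the number of legs, 2 or 3 per trained group, and in TAR299 also by depth.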
